A study of Mus musculus with 2 samples.

Results

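Of the 32285 genes counted in single cells of mouse plantaris muscle, 33 genes of sterol and fatty acid synthesis were followed through 8 droplet groups and 2 libraries. They were taken from a list of the pathway by name, with no use of their measured values, although earlier results of these data were known. They comprise 7 enzymes of the mevalonate arm, 11 of the sterol arm, 4 regulators and sterol carriers, and 3 enzymes of fatty acid synthesis. The others are 6 elongases and desaturases and the 2 sterol export genes Apoe and Abca1.

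Cells build cholesterol from acetyl-CoA. The mevalonate arm makes farnesyl diphosphate, and the sterol arm joins and reshapes it into cholesterol. Transcription factors of the SREBP family, encoded by Srebf1 and Srebf2, switch on these enzymes when membrane sterol is low, whereas surplus sterol leaves the cell through the transporter ABCA1 and lipoprotein particles that carry APOE. Fatty acid synthesis starts from the same acetyl-CoA, and elongases and desaturases then tailor the chains for membranes. Growing cells need both products for new membrane, and Schwann cells use them to build myelin.

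Both libraries came from the plantaris muscle of Pax7rtTA; TRE-H2B-GFP mice aged 26 weeks, in which the Pax7 promoter drives a transactivator that labels muscle stem cell (MuSC) nuclei with GFP during doxycycline treatment. Both groups drank doxycycline at 2.0 mg/ml for 2 weeks. The sham library came from sham-operated muscle. The MOV library came from muscle under mechanical overload (MOV), taken 5 days after part of its synergist muscles had been cut away. Cells were sorted as VCAM+, CD31-, CD45- and SCA1- according to the study's methods. These methods give several mice per group, whereas the labels speak of 1 mouse, and each condition was represented by 1 library, so that cells of a group share their library. Differences between libraries therefore have no replicate check, and no p-value is given. The 95% intervals cover counting error only.

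The sham library held 1100 droplets with 7302661 unique molecular identifiers (UMIs, each 1 counted RNA molecule) and the MOV library 3854 droplets with 88498487 UMIs. The libraries shared 44 cell barcodes, and in each pair the shallow copy was removed. The 39 copies removed from the MOV library held a median of 2.12% of the UMIs of their sham partner, and 20 of them would otherwise have joined its 31 fibre droplets. After removal of droplets with 10% or more mitochondrial UMIs and of likely doublets, 734 sham and 2950 MOV droplets remained. Groups were set by UMIs of marker genes, none of them a member. MuSC genes such as Pax7 and Myf5 marked 62 sham and 288 MOV cells that also carried quiescence markers such as Calcr and Chrdl2 (quiescence-marker MuSCs), 36 and 519 other MuSCs, 2 and 60 MuSCs with matrix genes, and 6 and 630 cycling MuSCs. There were 2 and 190 myocytes, 501 and 31 fibre droplets, 24 and 297 Pdgfra cells (fibro-adipogenic cells) and 9 and 74 Schwann cells. Median depth ranged from 2682 UMIs in MOV fibre droplets to 41019 in sham cycling MuSCs. All 9 MuSC markers were detected in the quiescence-marker MuSCs of both libraries, and all 8 Schwann markers in MOV Schwann cells. Since these markers set the groups, their detection is no check of the group names. All 9 MuSC markers were also detected in MOV Pdgfra cells, and all 8 Schwann markers in MOV myocytes. The sham matrix MuSCs and myocytes, with 2 droplets each, were not compared.

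Levels are given in CPM, the UMIs of a gene per 1e6 UMIs of its group. Since the assay counts 3′ ends, levels were compared between groups for 1 gene or 1 set of genes and not between genes. A member was compared where both groups together held at least 20 of its UMIs, and a ratio of at least 2-fold was counted as past the limit. Where a group held no UMI of a gene, it was set to a floor of 3 UMIs, and the log2 ratio to 0 where that bound passed 0, a choice made after the data were seen.

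On the CPM scale the summed level of the 18 enzymes of cholesterol synthesis was lowest in fibre droplets and, within the MOV library, about as high in cycling MuSCs, myocytes, Pdgfra cells and Schwann cells. In the MOV library it was 350 CPM in quiescence-marker MuSCs (333 to 366) and 378 CPM in matrix MuSCs (342 to 417), whose intervals overlapped. Other MuSCs stood between these groups and cycling MuSCs, at 542 CPM (529 to 556). Cycling MuSCs had 661 CPM (651 to 671), myocytes 663 CPM (646 to 681), Pdgfra cells 641 CPM (626 to 656) and Schwann cells 633 CPM (573 to 698), with overlapping intervals between neighbours in this order. Fibre droplets had 151 CPM (100 to 218) from 28 UMIs. In the sham library the order of the MuSC groups was similar, with 240 CPM (201 to 283) in quiescence-marker MuSCs, 275 CPM (230 to 327) in other MuSCs and 535 CPM (446 to 636) in the 6 cycling MuSCs. Sham Pdgfra cells had 368 CPM (300 to 446), sham fibre droplets 124 CPM (112 to 137), and the 9 sham Schwann cells 1412 CPM (1107 to 1775) from 73 UMIs. The place of fibre droplets depended on the scale, since their summed log2 ratio to sham quiescence-marker MuSCs was -0.95 (-1.23 to -0.66) in CPM and 0.20 with TMM scaling, which centres most genes. That of Schwann cells did too, with a log2 ratio to MOV quiescence-marker MuSCs of 0.86 in CPM and 0.49 with TMM scaling. Cycling MuSCs, myocytes and Pdgfra cells of the MOV library had 1.03, 1.02 and 0.90 with TMM scaling.

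**Figure D1:**
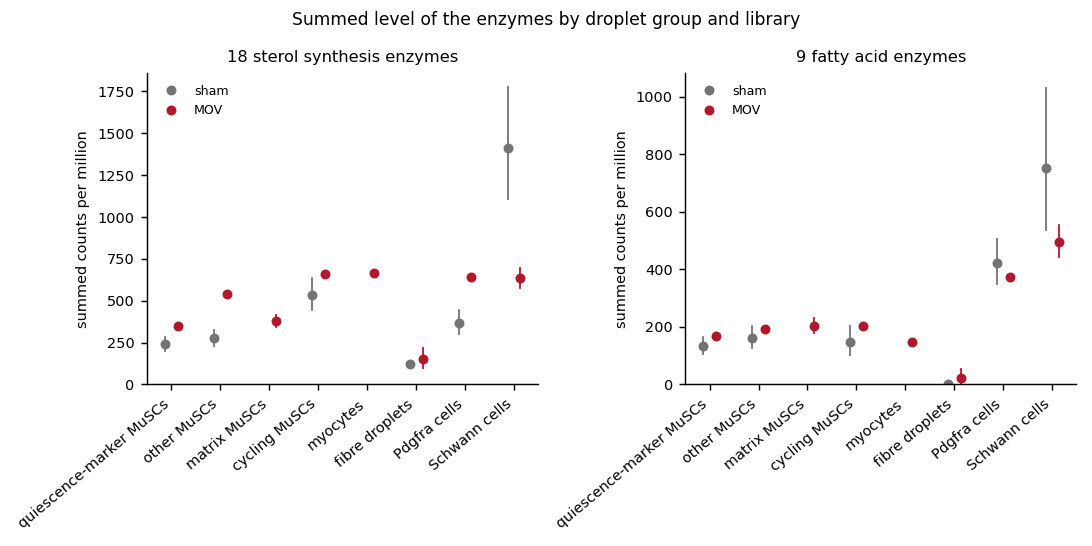
Summed CPM of the 18 sterol synthesis enzymes (left) and 9 fatty acid enzymes (right) in each droplet group of the sham and MOV libraries. Points are the summed level, bars its 95% counting interval, and groups of fewer than 5 droplets are not drawn. The sterol enzymes in the MOV library run from 151 CPM in fibre droplets to 663 CPM in myocytes, and the fatty acid enzymes peak in Schwann and Pdgfra cells.

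The 9 enzymes of fatty acid synthesis, elongation and desaturation followed another order. In the MOV library they summed to 146 CPM in myocytes (138 to 155), 167 CPM in quiescence-marker MuSCs (156 to 179) and 202 CPM in cycling MuSCs (196 to 207). Pdgfra cells held 373 CPM (362 to 384) and Schwann cells 496 CPM (443 to 554). The sham library had its highest values in the same cell types, at 421 CPM (349 to 504) in Pdgfra cells and 754 CPM (536 to 1031) in Schwann cells, against 133 CPM (105 to 167) in quiescence-marker MuSCs. The 501 sham fibre droplets held 8 UMIs of these enzymes among 3116517, or 2.57 CPM (1.11 to 5.06). The 31 MOV fibre droplets held 4 such UMIs, or 21.6 CPM (5.88 to 55.2), a log2 ratio to the sham droplets of 3.07 (0.89 to 4.97), or 2.67 with TMM scaling. Markers of other cells also differed between these droplets, MOV against sham. Matrix markers summed to 528 against 7.38 CPM, immune markers to 151 against 12.5 CPM and Pdgfra cell markers to 43.1 against 2.89 CPM. Their part in this ratio was not tested. The sham fibre droplets held transcripts of the mevalonate arm at 69.9 CPM (61.0 to 79.9), beside 66.7 CPM (47.4 to 91.2) in sham quiescence-marker MuSCs. The log2 ratio of the mevalonate arm between these groups was 0.07 (-0.43 to 0.60) in CPM and 1.21 with TMM scaling, while that of the fatty acid enzymes was -5.70 (-6.96 to -4.65) and -4.56.

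Promoters of some members that were higher in cycling MuSCs, and that of Abca1, which was lower there, are shown as examples of members that differed in opposite directions. The 250 bases before the RefSeq transcription start (build GRCm38.p6) are written 5′ to 3′ along the gene's strand. Capitals mark the CCAAT box, read as CCAAT or ATTGG and known as the site of NF-Y, a partner of SREBP, and in Hmgcs1 also TCACNCCAC, the core of the sterol regulatory element.
Mvk (chr5:114444019-114444268, plus strand): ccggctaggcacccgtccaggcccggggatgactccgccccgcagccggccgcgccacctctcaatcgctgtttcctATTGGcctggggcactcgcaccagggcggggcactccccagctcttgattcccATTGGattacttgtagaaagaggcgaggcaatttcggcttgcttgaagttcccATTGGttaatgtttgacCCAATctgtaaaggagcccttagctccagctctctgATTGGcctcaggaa
Nsdhl (chrX:72918271-72918520, plus strand): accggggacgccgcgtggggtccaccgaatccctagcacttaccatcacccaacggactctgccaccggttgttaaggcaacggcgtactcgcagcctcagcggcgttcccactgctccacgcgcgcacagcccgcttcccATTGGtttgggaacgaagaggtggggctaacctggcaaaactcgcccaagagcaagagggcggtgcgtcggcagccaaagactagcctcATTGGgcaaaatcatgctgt
Hmgcs1 (chr13:119690101-119690350, plus strand): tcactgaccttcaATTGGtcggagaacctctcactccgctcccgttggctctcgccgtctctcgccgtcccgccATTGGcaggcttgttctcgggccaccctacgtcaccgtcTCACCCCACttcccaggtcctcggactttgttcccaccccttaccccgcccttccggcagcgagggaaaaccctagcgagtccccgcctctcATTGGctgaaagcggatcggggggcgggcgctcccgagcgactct
Abca1 (chr4:53159896-53160145, minus strand): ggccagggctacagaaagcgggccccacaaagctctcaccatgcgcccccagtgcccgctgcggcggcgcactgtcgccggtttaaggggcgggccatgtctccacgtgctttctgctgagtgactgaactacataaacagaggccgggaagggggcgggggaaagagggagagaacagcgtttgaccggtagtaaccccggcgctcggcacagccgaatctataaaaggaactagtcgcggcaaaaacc
Within these stretches Mvk has 5 CCAAT boxes, Nsdhl 2, Hmgcs1 3 and Abca1 none. RefSeq promoter sequences, read from 250 bases before to 50 bases after the start on both strands, were matched for 26 of the 33 members. Fdps, Fdft1, Sqle, Stard4, Scd1, Scd2 and Fads1 had no entry. CCAAT was found for 20 of the 26 members and for 14 of 15 sterol enzymes (93.3%), compared with 41.1% of the 27025 genes in the table. GGGCGG, the GC box bound by SP1, was likewise found for 20 of 26 members and for 38.2% of all genes. Among the 6 fatty acid enzymes matched, CCAAT was found for 3 and GGGCGG for 2. Both motifs were also found for Hsd17b7, which was lower in cycling MuSCs. CCAAT was not found for Acat2, the remaining sterol enzyme matched, which was past 2-fold higher in those cells. TCACNCCAC was found for Hmgcs1 alone among the members and for 1.44% of all genes. Matches of different motifs may overlap at their ends. A match describes letters in the window and not binding.

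In cycling MuSCs of the MOV library, cholesterol synthesis transcripts were more abundant than in quiescence-marker MuSCs, and transcripts of sterol export were less abundant. Of 33 members compared, 11 were at least 2-fold higher and 2 at least 2-fold lower, where 12.3% of all 12414 genes compared were as much higher and 9.88% as much lower. The median log2 ratio was 0.72 over the members and -0.03 over all genes, and TMM scaling moved all ratios by 0.11. With other MuSCs joined to the reference, the share of members past 2-fold higher fell below that of all genes, as given below. All comparisons within the MOV library share the quiescence-marker MuSCs as reference. Cycling MuSCs were deeper, with a median of 35682.5 UMIs against 14658.

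All 7 mevalonate arm genes were higher in cycling MuSCs, each with an interval above 0. Idi1, which isomerises isopentenyl diphosphate, took 88.0 against 29.6 CPM, with a log2 ratio of 1.57 (1.33 to 1.82). Fdps, which makes farnesyl diphosphate, took 126 against 51.3 CPM, a log2 ratio of 1.30 (1.11 to 1.49). Mevalonate kinase, Mvk, had a ratio of 1.24 (0.76 to 1.76) and Acat2, which makes acetoacetyl-CoA, 1.15 (0.70 to 1.63). Hmgcs1, the synthase of HMG-CoA, took 70.0 against 38.9 CPM, below the 2-fold limit, and the smallest ratio was that of phosphomevalonate kinase, Pmvk, at 0.46 (0.18 to 0.74).

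In the sterol arm 10 of 11 genes were higher and 5 were past 2-fold. Squalene synthase, Fdft1, had a log2 ratio of 1.28 (0.89 to 1.70), and the lanosterol demethylase Cyp51 1.06 (0.83 to 1.30). The C4 demethylation enzymes Msmo1 and Nsdhl had ratios of 1.32 (1.00 to 1.66) and 1.21 (0.66 to 1.83). Hsd17b7, which acts in the same C4 demethylation, was the exception, at 17.6 against 26.1 CPM and a ratio of -0.57 (-0.86 to -0.28). Dhcr7, the last reductase of the Kandutsch-Russell branch, had the largest ratio, 2.19 (0.93 to 3.83), but rested on 5 UMIs in quiescence-marker MuSCs. The ratios of squalene epoxidase, Sqle, and sterol desaturase, Sc5d, were 0.72 (0.41 to 1.04) and 0.90 (0.49 to 1.34). Lss, lanosterol synthase, and the reductase Tm7sf2, whose gene overlaps Vps51 on the same strand so that its count is uncertain, took fewer than 3 CPM in both groups, with intervals that included 0, and the isomerase Ebp differed by 0.22 (0.04 to 0.41).

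Among regulators, the transcripts of the SREBP genes themselves differed little, with log2 ratios of 0.10 (-0.09 to 0.29) for Srebf2 and -0.22 (-0.65 to 0.23) for Srebf1. Insig1, which holds the SREBP complex in the endoplasmic reticulum and is itself an SREBP target, had 0.52 (0.22 to 0.84). The cholesterol carrier Stard4 was further apart, at 17.9 against 5.07 CPM and 1.82 (1.24 to 2.46). Of the fatty acid genes, ATP citrate lyase, Acly, had 0.71 (0.35 to 1.08), acetyl-CoA carboxylase, Acaca, 0.44 (0.06 to 0.84), and fatty acid synthase, Fasn, 0.47 (0.13 to 0.82). Fads1, the delta-5 desaturase, was past 2-fold at 1.63 (0.93 to 2.43), whereas the stearoyl-CoA desaturase Scd1 was lower, at -0.61 (-0.88 to -0.34). Scd2 and Fads2 were higher, at 56.2 and 11.0 CPM against 42.8 and 6.28 CPM. Elovl5 took 12.6 against 9.52 CPM and Elovl6 27.6 against 31.0 CPM, with intervals of the ratio that included 0. Of the 6 elongases and desaturases, 3 had an interval above 0 and 1 had one below.

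Sterol export genes went the other way. Apoe, the apolipoprotein of sterol-carrying particles, stood at 1273 CPM in quiescence-marker MuSCs and 142 CPM in cycling MuSCs, a log2 ratio of -3.17 (-3.22 to -3.11), and the transporter gene Abca1 at 18.6 and 2.66 CPM, a ratio of -2.81 (-3.28 to -2.35). The size of the difference depended on the reference cells. With other MuSCs, whose sterol enzymes summed to 542 CPM, joined to the quiescence-marker MuSCs, 1 member was past 2-fold higher and 2 were past 2-fold lower in cycling MuSCs, beside 7.55% and 6.47% of all genes.

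At equal depth of 10000 UMIs a cell, 242 quiescence-marker MuSCs of the MOV library had a median of 2 sterol enzyme UMIs (quartiles 1 and 4), and 603 cycling MuSCs a median of 5 (3 and 8). None of the 18 enzymes had a UMI in 35 of the former and 18 of the latter. The ranges between the quartiles overlapped. Left out as shallower were 46 and 27 cells.

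**Figure D2:**
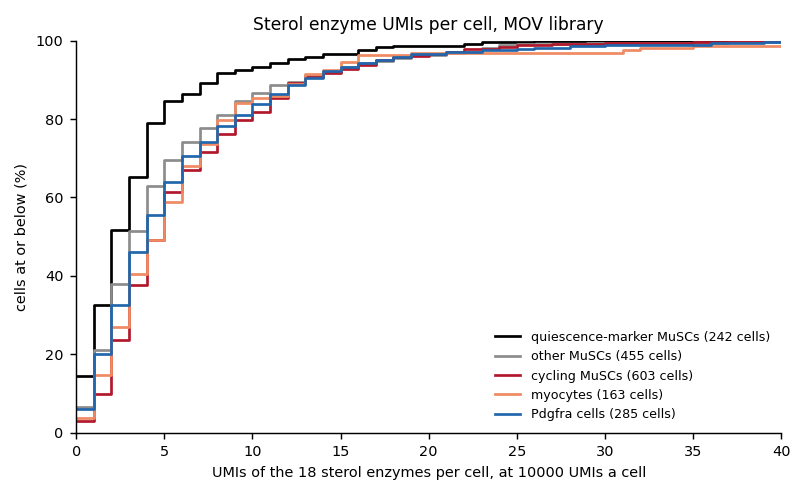
Cumulative share of MOV cells (y axis, percent) by the number of UMIs of the 18 sterol enzymes in each cell (x axis), after each cell was thinned to 10000 UMIs; shallower cells were left out. The curve of quiescence-marker MuSCs, with a median of 2, lies above those of cycling MuSCs and myocytes, each with a median of 5.

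Myocytes of the MOV library, which express Myog and Mymk, held sterol enzymes at the level of cycling MuSCs while their summed fatty acid enzymes had a log2 ratio to quiescence-marker MuSCs of -0.19 (-0.32 to -0.06) in CPM and -0.10 with TMM scaling. Of 33 members, 8 were at least 2-fold higher and 4 lower than in quiescence-marker MuSCs, beside 14.4% and 14.1% of all genes. With other MuSCs joined to the reference 2 were higher and 4 lower, beside 9.71% and 12.4% of all genes. Every one of the 8 was a sterol enzyme. Idi1 had a log2 ratio of 1.67 (1.41 to 1.93), Fdft1 1.66 (1.25 to 2.10), and mevalonate diphosphate decarboxylase, Mvd, 1.60 (0.97 to 2.28). Those of Fdps and Nsdhl were 1.53 (1.34 to 1.73) and 1.47 (0.87 to 2.11). In the sterol arm 3 of 11 genes were on the lower side. Hsd17b7 took 17.2 against 26.1 CPM, a ratio of -0.60 (-0.96 to -0.25), Ebp 48.0 against 56.1 CPM, -0.23 with an interval that ended just below 0, and Sqle had -0.14 (-0.52 to 0.25).

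Of the 6 elongases and desaturases, 2 were past 2-fold lower in myocytes and none higher. Elovl5, an elongase of polyunsaturated chains, took 4.48 against 9.52 CPM, a log2 ratio of -1.09 (-1.75 to -0.44), which TMM scaling brought just inside the limit. The delta-6 desaturase Fads2 took 2.36 against 6.28 CPM, -1.41 (-2.30 to -0.56), and the interval of the elongase Elovl6, just short of the limit, ran from -1.34 to -0.65. Scd1 had a ratio of -0.68 (-1.01 to -0.35). Scd2 was on the other side, at 58.6 against 42.8 CPM and 0.45 (0.22 to 0.69), and Fads1 took 4.24 against 3.45 CPM, 0.30 (-0.57 to 1.23). Acaca and Fasn had ratios of -0.37 (-0.86 to 0.12) and -0.39 (-0.83 to 0.04), while Acly was higher, at 19.8 against 14.6 CPM and 0.44 (0.03 to 0.86). Apoe was at 81.1 CPM, a ratio of -3.97 (-4.09 to -3.86), and Abca1 at 2.83 CPM, a ratio of -2.72 (-3.43 to -2.06). Cycling markers were also present in this group, at 1251 CPM summed over 12 genes, compared with 132 CPM in quiescence-marker MuSCs and 4580 CPM in cycling MuSCs. Their part in the sterol enzyme levels was not tested.

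**Figure D3:**
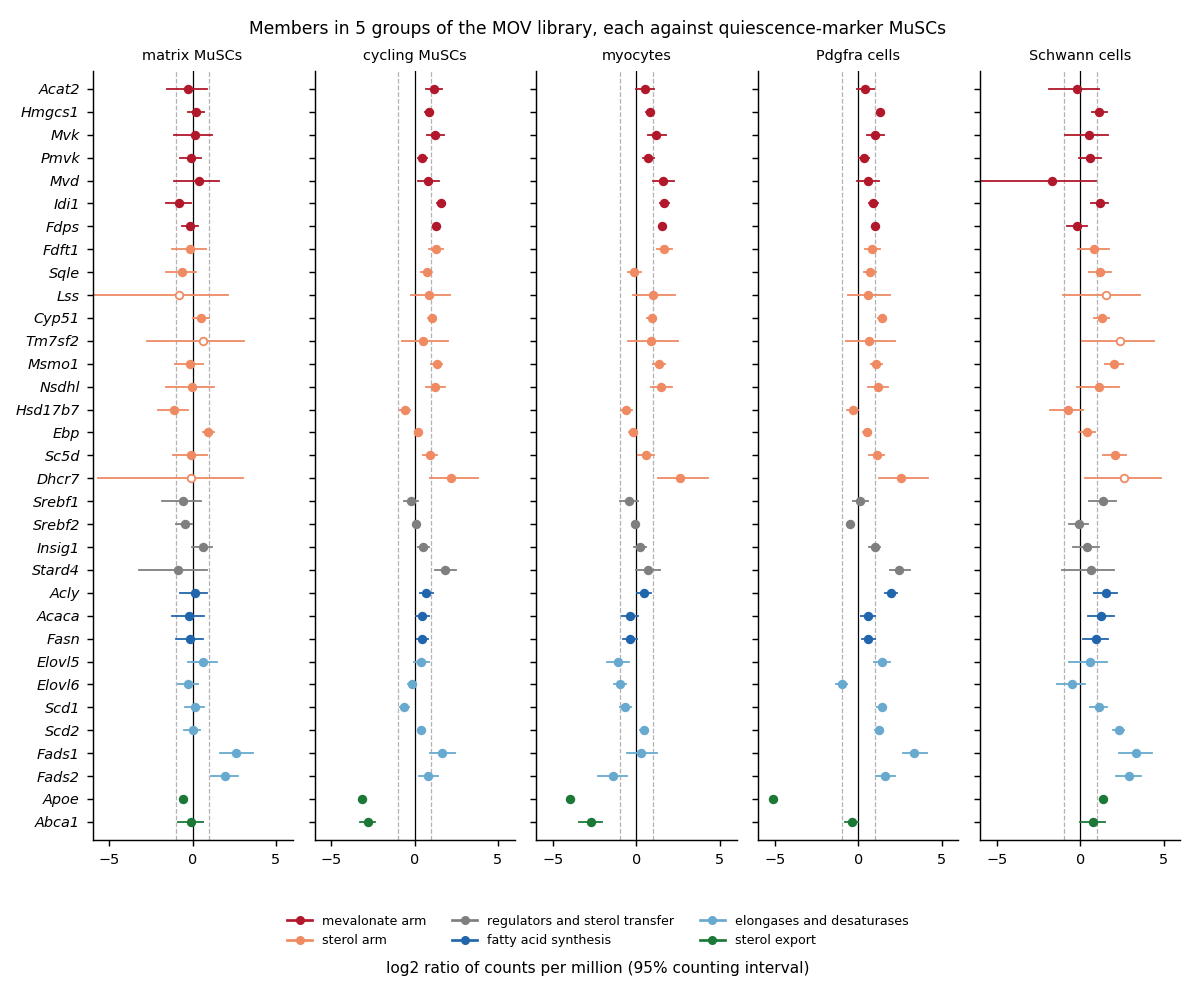
Log2 ratio of the CPM of each member in 5 groups of the MOV library against quiescence-marker MuSCs of the same library. Points are ratios, bars 95% counting intervals cut at the axis limit of 6, open points members with fewer than 20 UMIs, and dashed lines 2-fold. Most sterol enzymes lie to the right of 0 in cycling MuSCs, myocytes, Pdgfra cells and Schwann cells. Fads1 and Fads2 do so in matrix MuSCs, Pdgfra cells and Schwann cells among others. Apoe lies far to the left in 3 groups, down to -5.11 in Pdgfra cells.

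Of 30 members compared between matrix and quiescence-marker MuSCs of the MOV library, 2 were past 2-fold higher and 1 lower, beside 7.55% and 6.54% of all genes. The count depended on how the groups were drawn. With doubled marker thresholds 17 members were compared, 3 higher and 5 lower, beside 12.6% and 20.7% of all genes, and with other MuSCs joined to the reference 2 of 33 were higher and 4 lower, beside 9.48% and 7.90%. The desaturases Fads1 and Fads2, which lie beside each other on chromosome 19 and act in the making of polyunsaturated fatty acids, took 21.4 and 24.2 CPM against 3.45 and 6.28 CPM. Their log2 ratios were 2.63 (1.67 to 3.63) and 1.94 (1.13 to 2.74), on 23 and 26 UMIs. Hsd17b7 was lower at -1.11 (-2.06 to -0.29), and Ebp took 108 against 56.1 CPM, a ratio of 0.94 (0.62 to 1.26). Tenocyte markers summed to 7269 CPM in matrix MuSCs and 39.1 CPM in quiescence-marker MuSCs. Droplets left without a group, in which the same markers summed to 5342 CPM, held Fads1 at 30.2 CPM and Fads2 at 18.5 CPM. The part of such cells in these ratios was not tested.

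Pdgfra cells of the MOV library combined high sterol and high fatty acid enzymes. Compared with quiescence-marker MuSCs, 14 of 33 members were at least 2-fold higher and 2 lower, beside 21.3% and 12.1% of all genes. With other MuSCs joined to the reference 7 were higher and 2 lower, beside 19.6% and 13.1% of all genes. The 6 elongases and desaturases had a median log2 ratio of 1.39. Fads1 had 3.34 (2.65 to 4.14), Fads2 1.61 (1.07 to 2.21), Elovl5 1.39 (0.94 to 1.87), Scd1 1.39 (1.14 to 1.65) and Scd2 1.21 (0.99 to 1.43), and Elovl6 was at -1.01 (-1.33 to -0.69). Its place past the limit rested on the scale, at -0.98 with TMM scaling, and its ratio was 0.34 with each cell thinned to 2000 UMIs. Acly took 57.0 against 14.6 CPM, a ratio of 1.97 (1.61 to 2.34). In cholesterol synthesis, Hmgcs1 had 1.32 (1.09 to 1.55) and Cyp51 1.43 (1.20 to 1.68), and Stard4 reached 27.9 against 5.07 CPM, 2.46 (1.87 to 3.11). Apoe stood at 36.8 CPM, a ratio of -5.11 (-5.26 to -4.97), although Abca1, at 14.1 CPM, was closer to the 18.6 CPM of quiescence-marker MuSCs. Pdgfra cells were deeper, with a median of 37697 UMIs against 14658. Cycling markers summed to 1550 CPM in them against 132 CPM in quiescence-marker MuSCs, and tenocyte markers to 1451 against 39.1 CPM. The part of these in the ratios was not tested.

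Schwann cells of the MOV library held more of the desaturases and of Apoe than quiescence-marker MuSCs. In the MOV library 15 of 30 members were at least 2-fold higher than in quiescence-marker MuSCs and 1 was lower, beside 20.9% and 11.9% of all genes. The count changed with the scale, because TMM scaling moved all log2 ratios by -0.37. It left 6 members higher and 2 lower, beside 14.0% and 18.1% of all genes. The member past 2-fold lower in CPM was Mvd. Its log2 ratio was 0.10 with every cell weighted equally and 0.46 with each cell thinned to 2000 UMIs. On the CPM scale Scd2, the stearoyl-CoA desaturase known from brain and nerve, took 212 against 42.8 CPM, a log2 ratio of 2.31 (1.99 to 2.63). Fads1 and Fads2 had ratios of 3.31 (2.33 to 4.32) and 2.89 (2.12 to 3.67), Sc5d 2.07 (1.37 to 2.75) and Msmo1 2.03 (1.46 to 2.57). All 5 were also past 2-fold with TMM scaling. Apoe took 3221 against 1273 CPM, a ratio of 1.34 (1.27 to 1.41), which became 0.97 with TMM scaling. In the 9 sham Schwann cells Scd2 took 580 CPM and Apoe 2959 CPM (2509 to 3467), the latter overlapping the MOV interval of 3084 to 3363 CPM. Sham quiescence-marker MuSCs held more Apoe than these, at 4050 CPM (3888 to 4216). The summed immune markers reached 1136 CPM in MOV Schwann cells, nearly all of it Lyz2, and 15.6 CPM without that gene.

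Among the 8 droplet groups, Apoe was highest in quiescence-marker MuSCs and Schwann cells of both libraries and low in fibre droplets. In the sham library it went from 4050 CPM (3888 to 4216) in quiescence-marker MuSCs through 1542 CPM (1433 to 1658) in other MuSCs and 396 CPM (326 to 477) in Pdgfra cells to 134 CPM (91.5 to 189) in cycling MuSCs and 20.9 CPM (16.1 to 26.6) in fibre droplets. In the MOV library quiescence-marker, other and cycling MuSCs had the same order, at 1273 CPM (1242 to 1305), 534 CPM (521 to 547) and 142 CPM (137 to 146), and MOV matrix MuSCs had 859 CPM (805 to 917). Among groups of at least 5 droplets in each library, cycling MuSCs and Schwann cells were those with overlapping intervals between libraries. With each droplet thinned to 2000 UMIs, 93.4% of sham (84.1% to 98.2%) and 71.9% of MOV (66.3% to 77.0%) quiescence-marker MuSCs had an Apoe UMI. In cycling MuSCs of the MOV library the share was 26.6%, in myocytes 9.41%, and in sham fibre droplets 0.559% (0.0677% to 2.00%). Without thinning these shares were 100%, 94.8%, 86.2%, 67.9% and 1.20%. Immune markers summed to at most 29.8 CPM in quiescence-marker MuSCs of either library, and Schwann markers to 1.71 CPM in the sham and 9.93 CPM in the MOV cells. Droplets that met the immune rule, and MuSCs that met the Schwann rule, had been left out, so these low sums were partly set by the grouping. The part of RNA from such cells in the Apoe levels was not tested.

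**Figure D4:**
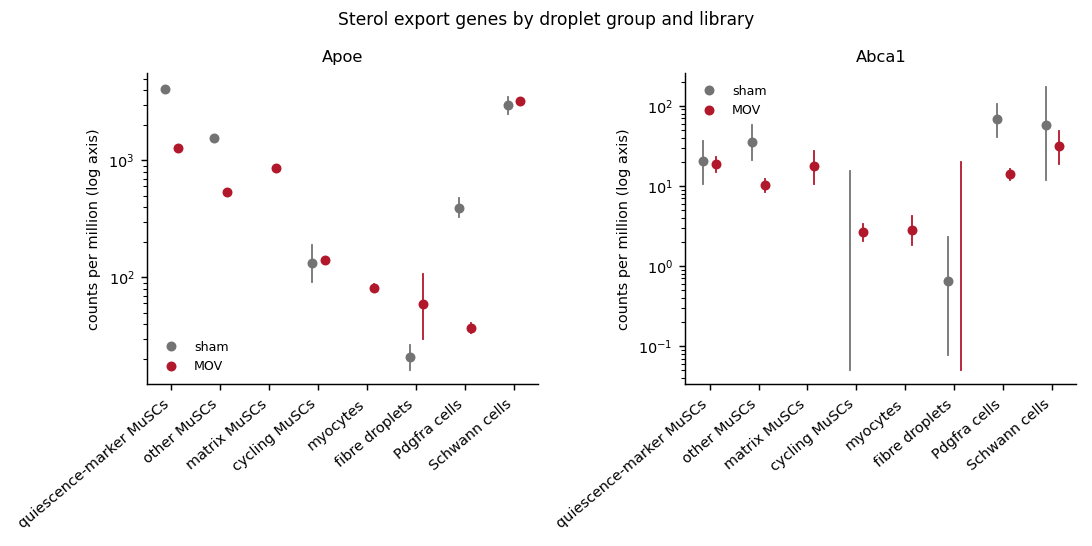
CPM (log axis) of Apoe (left) and Abca1 (right) in each droplet group of the sham and MOV libraries, with 95% counting intervals; a bar with no point is a group with 0 UMIs, and groups of fewer than 5 droplets are not drawn. Apoe lies between 4050 CPM in sham quiescence-marker MuSCs and 20.9 CPM in sham fibre droplets, and Schwann cells of both libraries, at 2959 and 3221 CPM, have overlapping intervals.

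Between libraries, quiescence-marker MuSCs of overloaded muscle held more mevalonate arm transcripts and less Apoe than those of sham muscle. Of 29 members compared, 7 were at least 2-fold higher and 2 lower, beside 17.4% and 7.46% of all genes. With other MuSCs joined in both libraries 12 of 33 were higher and 2 lower, beside 13.9% and 7.84% of all genes, and with doubled marker thresholds 4 of 19 were higher and none lower, beside 15.6% and 7.38%. With the groups as first drawn, the median log2 ratio was 0.12 over the members and 0.20 over all genes. The counts past 2-fold higher pointed the other way from this median. Whether the list stood apart from the other genes was not tested. The summed mevalonate arm took 166 CPM (155 to 178) in the MOV and 66.7 CPM (47.4 to 91.2) in the sham library, a log2 ratio of 1.32 (0.85 to 1.82). Fdps took 51.3 against 15.4 CPM, 1.74 (0.79 to 2.88), Hmgcs1 38.9 against 13.7 CPM, 1.51 (0.50 to 2.74), and Pmvk 24.9 against 8.55 CPM, 1.54 (0.28 to 3.19). Each of these sham values rested on 5 to 9 UMIs. Of the 11 sterol arm genes 8 could be compared. None of these was past 2-fold, and Hsd17b7 was lower, at 26.1 against 46.2 CPM and -0.82 (-1.43 to -0.17).

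Scd2 had the largest log2 ratio among the members compared in these cells, at 42.8 CPM from 211 UMIs against 5.13 CPM from 3 UMIs, a log2 ratio of 3.06 (1.49 to 5.35). In other MuSCs its levels were closer, at 57.2 CPM (53.0 to 61.7) in the MOV library and 31.5 CPM (17.6 to 52.0) from 15 UMIs in the sham library. In quiescence-marker MuSCs its neighbour Scd1 did not follow, at 30.0 against 39.3 CPM and -0.39 (-1.03 to 0.31). Elovl6 took 31.0 against 15.4 CPM, 1.01 (0.05 to 2.17), which became 0.97 with TMM scaling. Mvk, Srebf1 and Stard4 were also past the limit, at 1.17, 1.68 and -1.02, but had 2, 2 and 6 sham UMIs and intervals that included 0. The ratio of Mvk was -3.24 with cells thinned to 2000 UMIs, and that of Stard4 was 0.91 with other MuSCs joined. Apoe had a log2 ratio of -1.67 (-1.74 to -1.60), and Abca1, at 18.6 and 20.5 CPM, had one of -0.14 (-1.01 to 0.87). With doubled marker thresholds no member was past 2-fold lower. The place of Apoe past the limit thus depended on how the groups were drawn. The sham cells were shallower, with a median of 7915 UMIs against 14658, and had more mitochondrial UMIs, with a median of 5.89% against 3.24%. Matrix markers summed to 737 CPM in the sham and 2854 CPM in the MOV cells, myocyte markers to 13.7 and 95.2 CPM, and fibre markers to 1204 and 493 CPM. The part of these differences in the ratios was not tested.

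**Figure D5:**
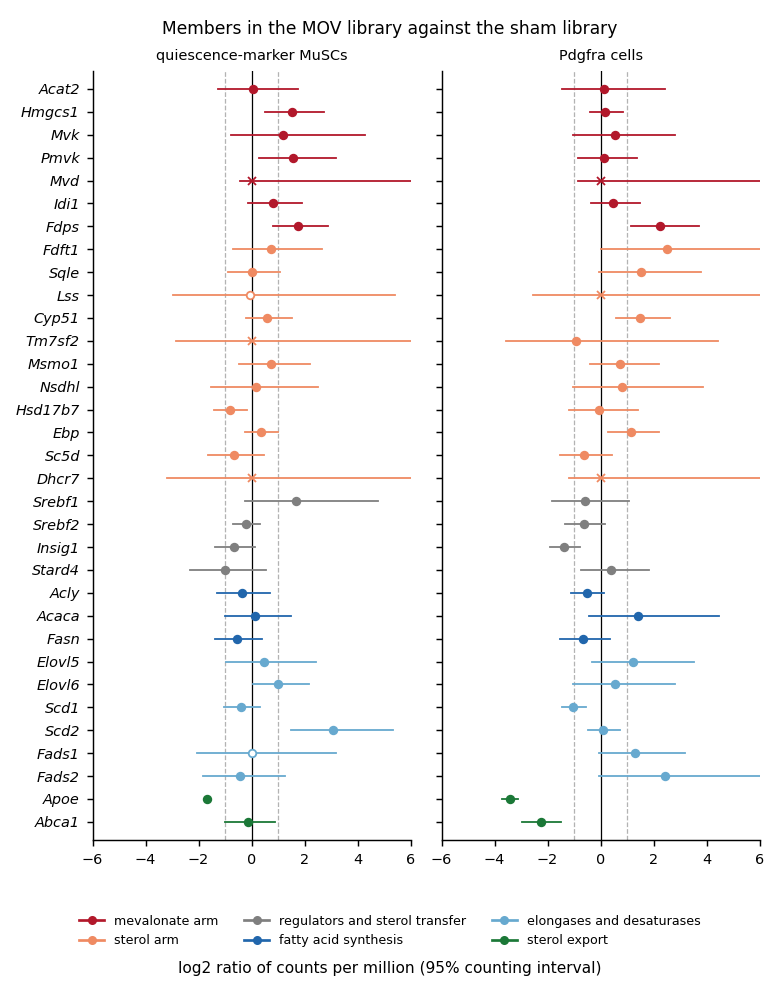
Log2 ratio of the CPM of each member in the MOV library against the sham library, in quiescence-marker MuSCs (left) and Pdgfra cells (right). Points are ratios, bars 95% counting intervals cut at the axis limit of 6, open points members with fewer than 20 UMIs, crosses members with 0 sham UMIs, and dashed lines 2-fold. Apoe is lower in both, at -1.67 and -3.43.

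Pdgfra cells of overloaded muscle held more sterol enzyme transcripts, while the interval of the summed fatty acid enzymes included 0. The sterol enzymes had a log2 ratio of 0.80 (0.52 to 1.10) and the fatty acid enzymes one of -0.17 (-0.44 to 0.10). Of 33 members, 9 were at least 2-fold higher and 4 lower, beside 12.4% and 16.7% of all genes. With TMM scaling, which moved all log2 ratios by 0.20, 10 were higher and 3 lower, beside 17.2% and 12.7%. On the CPM scale 4 of the 9 had an interval above 0, all of them sterol enzymes. The 4 fatty acid enzymes among the 9, Acaca, Elovl5, Fads1 and Fads2, had log2 ratios of 1.42, 1.22, 1.29 and 2.43 on 2, 3, 4 and 1 sham UMIs, with intervals that included 0. Thinning to 2000 UMIs turned Acaca to -0.62 and Elovl5 to -0.45. Fdps took 102 against 21.4 CPM, 2.25 (1.13 to 3.70), Cyp51 90.4 against 32.1 CPM, 1.49 (0.56 to 2.63), and Ebp 78.9 against 35.7 CPM, 1.14 (0.26 to 2.21). The feedback gene Insig1 was lower, at 39.8 against 103 CPM and -1.38 (-1.92 to -0.78), as was Scd1, at 78.8 against 161 CPM and -1.03 (-1.46 to -0.56), which became -0.82 with TMM scaling. Both export genes were lower, Apoe at 36.8 against 396 CPM, -3.43 (-3.73 to -3.11), and Abca1 at 14.1 against 67.8 CPM, -2.27 (-2.96 to -1.50). The sham group was small, with 24 cells and 280213 UMIs. Its cells were also shallower, with a median of 11601.5 UMIs against 37697, and had a median of 3.55% against 2.05% mitochondrial UMIs. The groups differed in their markers, with Pdgfra cell genes at 8030 CPM in the sham and 2141 CPM in the MOV cells, matrix genes at 10521 and 26592 CPM, and fibre genes at 742 and 126 CPM. Cycling genes stood at 128 and 1550 CPM and tenocyte genes at 92.8 and 1451 CPM, and the part of these differences in the ratios was not tested.

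Fibre droplets carry myosin and creatine kinase RNA of mature fibres. In the sham library 13 members could be compared with quiescence-marker MuSCs, of which 2 were at least 2-fold higher and 6 lower, beside 26.6% and 44.1% of all genes. TMM scaling moved all log2 ratios by 1.14 and turned the split to 4 higher and 6 lower, beside 43.6% and 28.9% of all genes. Fdft1 was the member with an interval above 0, at 32.4 against 6.84 CPM and 2.24 (0.84 to 4.15). Its level in sham quiescence-marker MuSCs was near the 5.13 CPM that 3 UMIs make in that group. The other member past 2-fold higher in CPM was Mvk, whose log2 ratio was -1.23 with each cell thinned to 2000 UMIs. Those lower on either scale were Apoe, at -7.60 (-7.98 to -7.25), Hsd17b7, at -5.58 (-7.95 to -3.88), Srebf2, at -5.04 (-6.57 to -3.78), Insig1, at -3.08 (-4.25 to -1.96), Ebp, at -2.79 (-3.71 to -1.90), and Scd1. The last had 0 UMIs in 501 fibre droplets against 39.3 CPM, and was at least 40.9-fold lower against a floor of 3 UMIs in the group.

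Between the libraries, the 31 MOV fibre droplets held 185485 UMIs, and 9 members could be compared. Ebp, at 1.75 (-0.26 to 3.33), and Apoe, at 1.51 (0.44 to 2.44), were past 2-fold higher and none lower, beside 15.5% and 12.3% of all genes. Their MOV values rested on 4 and 11 UMIs. With doubled marker thresholds no member was past 2-fold in either direction. With the shallow copies kept, these ratios were 1.64 and 1.40, and with TMM scaling, which moved log2 ratios by -0.41, 2 members were higher and 2 lower, beside 9.27% and 21.6% of all genes. Markers of other cells differed between the same droplets. Matrix markers summed to 528 CPM in the MOV and 7.38 CPM in the sham fibre droplets, with 6 and 5 of 7 detected. Immune markers summed to 151 and 12.5 CPM, with 4 and 5 of 9 detected, or to 113 and 3.53 CPM without Lyz2, and Pdgfra cell markers to 43.1 and 2.89 CPM. Their part in the ratios was not tested.

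Of 34 further genes of sterol and fatty acid metabolism, 31 were compared in cycling MuSCs, with 4 at least 2-fold higher and 4 lower, beside 12.3% and 9.88% of all genes. Lbr, a sterol reductase that also anchors chromatin at the nuclear lamina, had a log2 ratio of 1.40 (1.15 to 1.67), and Tmem97, a sterol-responsive membrane protein, 1.87 (1.56 to 2.19). Mylip, which targets lipoprotein receptors for breakdown and is induced by surplus sterol, was lower at -1.55 (-1.95 to -1.14), and Gpam, which starts glycerolipid synthesis, at -1.47 (-1.91 to -1.02). In Schwann cells 9 of 27 were higher and 4 lower, beside 20.9% and 11.9% of all genes, and with TMM scaling 7 were higher and 6 lower, beside 14.0% and 18.1%. Dbi, the acyl-CoA binding protein, took 3098 against 350 CPM there, 3.15 (3.05 to 3.24). In sham fibre droplets 7 of 25 were higher and 13 lower than in quiescence-marker MuSCs, beside 26.6% and 44.1% of all genes, and with TMM scaling 10 were higher and 11 lower, beside 43.6% and 28.9%. Malic enzyme, Me1, took 101 against 1.71 CPM, 5.88 (3.39 to 11.19), and Lpin1, a phosphatidate phosphatase, took 50.7 CPM from 158 UMIs against 0 UMIs, at least 9.88-fold higher against a floor of 3 UMIs in the group. Between libraries, Tmem97 took 17.8 CPM in MOV quiescence-marker MuSCs from 88 UMIs against 0 UMIs, at least 3.47-fold higher by the same floor, and 73.0 against 10.7 CPM in Pdgfra cells, 2.77 (1.22 to 5.05).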

How the data were processed

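Single-cell 3′ gene expression was measured in 1 sham and 1 MOV library. The authors deposited raw UMI counts per gene and droplet, made with Cell Ranger 6.0.0 on mm10 per the submitters' processing notes, which also name R 4.0.2 and Seurat 4.0.2. The members and lists were chosen with earlier results of these data known, and marker thresholds were set after marker levels were seen.

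The shallow copy of each barcode shared by both libraries, droplets with 10% or more mitochondrial UMIs, and the highest Scrublet doublet scores (scanpy 1.11.5, at a share that grows with the number of cells) were removed (4 sham and 73 MOV doublets). UMIs were summed per group and library and divided by the group's total. Intervals are exact Poisson intervals for levels, exact conditional binomial intervals for ratios and exact Clopper-Pearson intervals for shares, at 95%. TMM factors came from edgeR 4.0.16 (R 4.3.3). Thinning drew 2000 or 10000 UMIs per cell without replacement. Python 3.11.15, numpy 2.4.6, scipy 1.17.1, pandas 2.3.3 and matplotlib 3.10.9 were used, and the ratio script was tested on simulated counts. All 33 members were described by role, and other pathway genes were named only where the whole interval or bound lay past 2-fold. With 1 library per condition no test between conditions was run. Group settings, scaling, minimum counts, cell weights, depth and the fold limit were varied.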

Additional observations from a re-analysis of the deposited data

Results flagged for a closer look

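Apoe differed between libraries in opposite directions by cell group. Its log2 ratio of MOV to sham was -1.67 in quiescence-marker MuSCs and -3.43 in Pdgfra cells but 1.51 in fibre droplets, and the difference between these ratios was not tested because each condition has 1 library. With doubled marker thresholds no member was past 2-fold lower in quiescence-marker MuSCs, and none was past 2-fold in fibre droplets. The fibre ratio rested on 11 MOV UMIs in 7 of 31 droplets and 65 sham UMIs in 6 of 501. In the same droplets, MOV against sham, matrix markers summed to 528 against 7.38 CPM and immune markers to 151 against 12.5 CPM, or 113 against 3.53 CPM without Lyz2. Their part in the ratio was not tested.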

How the results depend on the processing

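No paired analysis was possible because each condition has 1 library. Of the counts of members past 2-fold recomputed under other settings, 95 stayed within 1.5 times the reported count and 31 did not. Of the member ratios, 2373 stayed within their counting interval, 290 left it and 8 past 2-fold changed sign. The cause was not tested. Each count below is given out of the members compared, with the share of all genes past the same limit in either direction in parentheses. A 1.5-fold limit gave, for MOV against sham, 16 of 29 in quiescence-marker MuSCs (47.4%), 5 of 9 in fibre droplets (49.6%) and 20 of 33 in Pdgfra cells (49.9%), and against quiescence-marker MuSCs 9 of 30 in matrix MuSCs (31.3%), 21 of 33 in cycling MuSCs (44.6%) and 21 of 33 in myocytes (49.6%). Thinning each cell to 2000 UMIs gave, for MOV against sham, 4 of 10 in quiescence-marker MuSCs (27.6%), 0 of 2 in fibre droplets (26.3%) and 5 of 14 in Pdgfra cells (31.8%), and 6 of 13 in myocytes (28.9%), 6 of 11 in Schwann cells (32.6%) and 2 of 3 in sham fibre droplets (67.7%). Doubled marker thresholds gave 4 of 19 for MOV against sham in quiescence-marker MuSCs (23.0%), 0 of 8 in fibre droplets (26.9%) and 8 of 17 in matrix MuSCs (33.3%). For fibre droplets between libraries TMM factors gave 4 of 9 (30.9%) and the median of ratios 4 of 9 (31.7%), and for Schwann cells each gave 8 of 30 (32.1%). With no minimum count the fibre comparisons gave 10 of 28 between libraries (29.3%) and 23 of 33 in the sham library (59.4%), and with a minimum of 50 UMIs 1 of 3 (25.5%) and 2 of 3 (71.5%). Equal weight for every cell gave 7 of 9 for fibre droplets between libraries (48.5%), and a mitochondrial limit of 5% gave 5 of 9 for sham fibre droplets (61.4%). Joining other MuSCs to quiescence-marker MuSCs, an alternative chosen after seeing the data, gave 14 of 33 for MOV against sham (21.7%), 6 of 33 in matrix MuSCs (17.4%), 3 of 33 in cycling MuSCs (14.0%), 6 of 33 in myocytes (22.1%), 9 of 33 in Pdgfra cells (32.7%) and 15 of 20 in sham fibre droplets (73.0%), and turned Stard4 between libraries to 0.91. Thinning turned Mvk in quiescence-marker MuSCs between libraries to -3.24 and in sham fibre droplets to -1.23, Acaca and Elovl5 in Pdgfra cells between libraries to -0.62 and -0.45, Elovl6 in Pdgfra cells to 0.34 and Mvd in Schwann cells to 0.46, and equal weight turned Mvd there to 0.10. Keeping the shallow copies, and leaving out the deepest cells, both also chosen after seeing the data, moved no count by more than 1.5 times. A level of 3 UMIs corresponds to 5.13 CPM in sham quiescence-marker MuSCs, 10.7 CPM in sham Pdgfra cells, 58.0 CPM in sham Schwann cells and 16.2 CPM in MOV fibre droplets, which limits what these groups can show.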

Other observations

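Export genes were also high in droplets left out of the groups because they carried immune, endothelial, mural or erythroid markers or markers of several types. Apoe stood at 7740 CPM (7443 to 8045) in the 35 such sham droplets and 5772 CPM (5681 to 5865) in the 174 MOV droplets, and Abca1 at 160 CPM (120 to 209) and 194 CPM (177 to 211). In droplets that met no marker rule, 57 in the sham and 687 in the MOV library, Apoe stood at 1134 CPM (1052 to 1221) and 234 CPM (226 to 242).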
